A study of Mus musculus with 12 samples.

Results

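The genes described here are 10 regulators of myogenesis and of the muscle satellite cell: the 4 myogenic regulatory factors Myod1, Myf5, Myf6 and Myog, the satellite cell factor Pax7, the MEF2 genes Mef2a, Mef2c and Mef2d, and the inhibitors Id1 and Id3. They were chosen by name, as all probe sets that the platform annotation gives to these symbols, with earlier results of these data known. They are 10 of the 18193 genes with a probe set on the array and 23 of the 34945 probe sets with a single gene. Each gene is represented by its brightest probe set over the 12 arrays, and all 10 of these, with 22 of the 23 probe sets, were bright enough to test. The remaining one, 1447675_x_at of Myod1, lay between 6.05 and 39.5 and was too dim.

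RNA was measured in mouse skeletal muscle on 12 single-colour Affymetrix arrays, 1 animal each. The groups were KO with growth hormone (GH), WT with GH, KO without GH and WT without GH, with 3 arrays each. KO mice lack Stat5a and Stat5b, the transcription factors that carry the signal of the GH receptor to the nucleus, and WT mice carry both. The series title concerns STAT5 in muscle growth and fibre composition, whereas blood cells are where the treatment label puts the deletion. Neither the driver of the deletion nor the GH dose, its duration, sex, age or strain is given in the labels. Muscle deletions are often made with a Cre recombinase inserted at Myf5, itself one of the genes described here, and whether that applies to these mice is not stated in the labels.

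Myogenic regulatory factors are basic helix-loop-helix proteins that bind E-boxes together with a ubiquitous E protein partner. During development and repair Myf5 and Myod1 commit cells to the muscle lineage, Myog drives their differentiation and fusion, and Myf6 (MRF4) is the family member kept at a high level in mature fibres. Pax7 marks quiescent satellite cells, MEF2 proteins cooperate with the myogenic factors on muscle promoters, and ID proteins capture E proteins so that the myogenic factors cannot bind. In adult rodent muscle Myod1 RNA is enriched in fast fibres and Myog RNA in slow fibres, and denervation raises both.

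Both deleted genes were lower in KO muscle. The Stat5b signal was 333 to 378 in KO with GH, against 1694 to 1896 in WT with GH, and 372 to 497 in KO, against 2640 to 2955 in WT. Stat5a averaged 162 in KO with GH and 402 in WT with GH, and 255 in KO and 627 in WT. The arrays with GH differed from those without in added control RNA. The poly-A control transcripts had a geometric mean signal of 442 to 467 on arrays with GH and of 129 to 168 on arrays without it, which is 3.03 times as much (2-sided exact permutation p = 0.00216, adjusted p = 0.00866 over 12 checks). The ratio of the 3 prime to the 5 prime actin probe set, which depends on RNA integrity, ranged over 0.887 to 1.01 on arrays with GH and over 0.805 to 0.864 on the others (2-sided exact permutation p = 0.00216). The same ratio for Gapdh did not follow it, at 0.795 to 0.860 with GH and 0.834 to 0.877 without (2-sided exact permutation p = 0.156), and it was lower in KO with GH (0.795 to 0.830) than in WT with GH (0.842 to 0.860). GH treatment and these differences between the arrays cannot be told apart. The tissue label was borne out by 7 muscle fibre markers, whose mean signals lay between 37061 and 52957. The summed signal of 7 slow fibre markers was 36002 to 37022 in KO with GH, 30539 to 32373 in WT with GH, 38559 to 48267 in KO and 11748 to 32893 in WT.

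With GH, 2 of the 10 genes rose in KO relative to WT muscle, Myod1 and Myf6, and none fell. Over all 12653 genes tested, 4.53% passed limma's threshold (an adjusted p under 0.05) in this comparison, 2.43% as higher and 2.1% as lower. The median log2 change was 0.12 over the 10 genes and -0.02 over all genes. In whole muscle, fewer or more cells of a type and less or more RNA per cell cannot be told apart. Without GH, Myf6 alone rose in KO, where 1.43% of all genes passed, 0.767% as higher and 0.664% as lower. The median change there was 0.29 for the 10 genes, against -0.00 for all genes.

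More of them differed between the arrays with and without GH, a contrast that cannot be told apart from the array differences above. In KO muscle Myod1 and Myf6 rose and Id1 and Id3 fell with GH, that is 4 of 10, while 24.4% of all genes passed, 8.97% as higher and 15.4% as lower. In WT muscle Myf6, Myog and Mef2d rose and Myod1, Id1 and Id3 fell with GH, that is 6 of 10, while 19.1% of all genes passed, 7.37% as higher and 11.8% as lower. The median change of the 10 genes was -0.13 in KO and -0.11 in WT, and that of all genes was -0.06 in each. Both genotype comparisons share arrays with both GH comparisons, so the 4 sets of values are not independent. Only Myod1 passed for the interaction, the difference between the GH effect in KO and that in WT, for which 0.948% of all genes passed, 0.632% above 0 and 0.316% below.

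**Figure D1:**
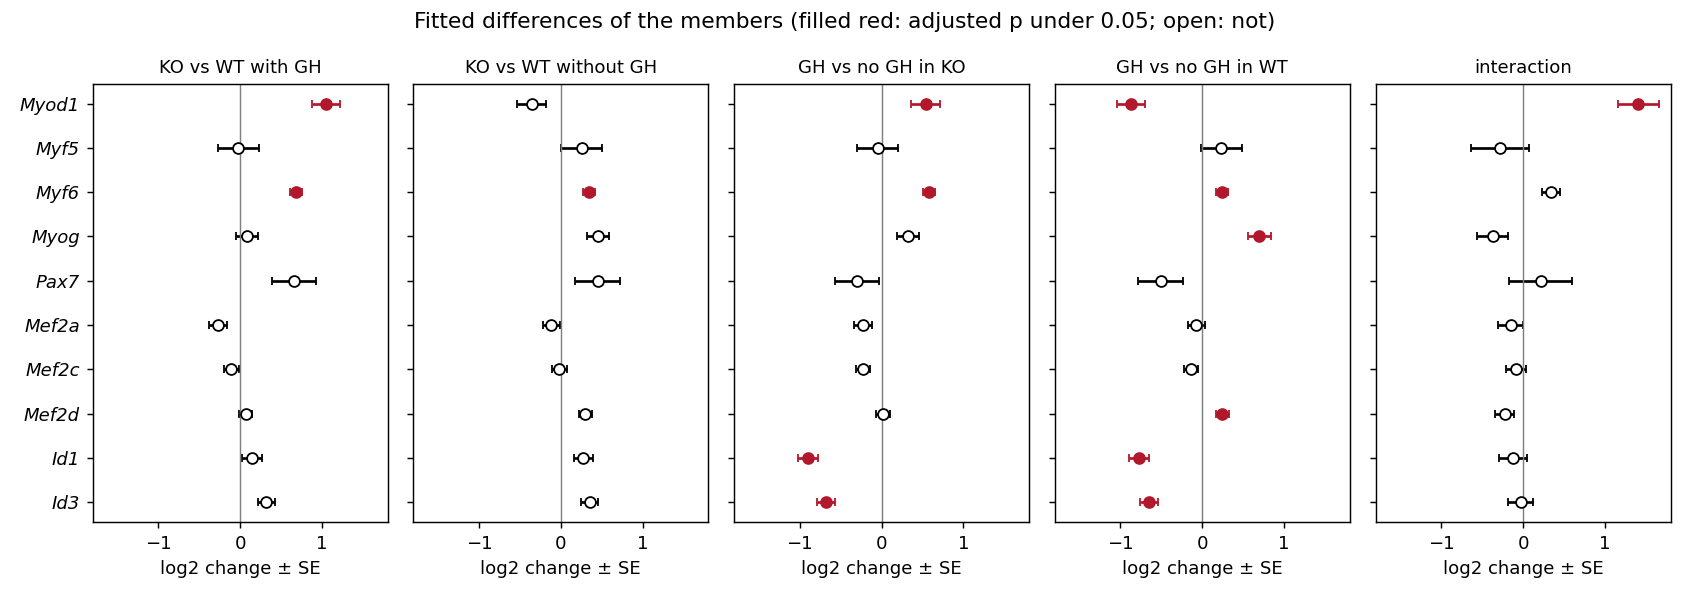
Fitted log2 changes of the 10 genes in the 5 comparisons (x axis, log2 units, bars are ± 1 SE from limma, 3 arrays per group), with filled red points past an adjusted p of 0.05 and open points not. Myod1 lies at 1.05 for KO against WT with GH and at -0.87 for GH in WT, while Id1 and Id3 lie left of 0 for GH in both genotypes.

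Myod1, the founding myogenic factor, moved in opposite directions with GH in KO and WT muscle. Its signal was 2330.2, 2241.5 and 2326 in KO with GH, 1110, 1034 and 1149 in WT with GH, 1599, 1617 and 1515 in KO, and 3089, 1665 and 1612 in WT. The 3 KO arrays with GH lay above every WT array with GH and every KO array without GH. Among the WT arrays without GH, WT 1 stood apart at 3089, above every other array, whereas WT 2 and WT 3 were close to the KO arrays.

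Relative to WT with GH, KO with GH had 2.07-fold the Myod1 signal (log2 change 1.05 ± 0.17 SE, limma adjusted p = 0.00189). Without GH the change was -0.36 ± 0.17 (limma adjusted p = 0.462), and the groups overlapped. Myod1 rose by 0.54 ± 0.17 with GH in KO (limma adjusted p = 0.0370). With GH in WT it fell by 0.87 ± 0.17 (limma adjusted p = 0.00321). The interaction was 1.41 ± 0.25 on the log2 scale (limma adjusted p = 0.00932). The means were 2299 ± 50.1 in KO with GH, 1098 ± 58.7 in WT with GH, 1577 ± 54.5 in KO and 2122 ± 838 in WT (SD, n = 3 each). WT with GH was the lowest group and the only one whose range overlapped no other, while the WT range overlapped those of KO with GH and KO.

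Leaving out WT 1 changed several of these values. The GH effect in WT was then -0.57 (limma adjusted p = 0.000232), the KO against WT difference without GH was -0.05, and the interaction was 1.11 (limma adjusted p = 6.59e-05). The rise with GH in KO was no longer called when any 1 of the 3 KO arrays or of the 3 KO arrays with GH was left out, with log2 changes of 0.51 to 0.56 and adjusted p of 0.0700 to 0.0980. With the actin ratio as a covariate the KO against WT change with GH was 0.84 (limma adjusted p = 0.207). The actin ratio itself was 0.962 to 1.01 in KO with GH and 0.887 to 0.932 in WT with GH (exact permutation p = 0.1, the smallest that 3 arrays against 3 allow). Since these ranges do not overlap, the covariate and the genotype can hardly be told apart with GH. The deleted gene Stat5a also lost its call with this covariate, at -0.98 (limma adjusted p = 0.213), whereas Stat5b kept its call. Averaging Myod1 with its dim second probe set gave 0.38 for the same comparison (limma adjusted p = 0.308).

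Slow fibre RNA varied among the same arrays. WT 1, with the most Myod1, had the least of the slow myosin heavy chain Myh7, at 124, against 1133 and 192 in WT 2 and WT 3. Across the groups Myh7 was 3914 to 4082 in KO with GH, 2393 to 3040 in WT with GH, and 3575 to 4337 in KO. The part of fibre composition in the Myod1 values was not tested.

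Myf6, the myogenic factor of mature fibres, was higher in KO than in WT muscle both with and without GH, and higher with GH in both genotypes. Its signal was 8376, 8564 and 9016 in KO with GH, 5488, 5297 and 5344 in WT with GH, 5572, 5499.5 and 6268 in KO, and 4258, 4599 and 4788 in WT. None of the 4 pairs of groups compared overlapped. In KO with GH it reached 161% of the WT with GH mean (log2 change 0.68 ± 0.07, limma adjusted p = 4.25e-05), and in KO it reached 127% of the WT mean (0.34 ± 0.07, limma adjusted p = 0.0313).

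With GH, Myf6 rose by 0.58 ± 0.07 in KO (limma adjusted p = 6.55e-05) and by 0.24 ± 0.07 in WT (limma adjusted p = 0.0347). The difference between these 2 changes, 0.34 ± 0.11, had an adjusted p of 0.216. It passed under 2 of 24 alternatives, array weights and without WT 1 and KO 3 (limma adjusted p = 0.0223 and 0.0157). The means were 8652 ± 329 in KO with GH, 5376 ± 99.8 in WT with GH, 5780 ± 424 in KO and 4548 ± 269 in WT (SD, n = 3 each). KO with GH was the highest group and WT the lowest, and the means of WT with GH and KO, which lay between, differed by less than the SD of KO. The call for KO against WT with GH held under all 26 alternatives and that for GH in KO under all 25. The smaller differences were less firm: KO against WT without GH passed under 12 of 26 alternatives, with an adjusted p of 0.330 when only those 2 groups entered the fit, and GH in WT passed under 13 of 25.

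Myog, the factor of myoblast differentiation and of the response to denervation, rose with GH in WT muscle. Its signal was 559, 549.8 and 577 in KO with GH, 499.8, 570.4 and 515 in WT with GH, 522, 403 and 412 in KO, and 363, 336 and 257 in WT. The WT arrays were the lowest of the 12, and none of the 3 reached any array of the other groups. Myog rose by 0.70 ± 0.13 with GH in WT (1.62-fold, limma adjusted p = 0.00231), a call kept under all 25 alternatives. In KO the change with GH was 0.33 ± 0.13 (limma adjusted p = 0.0919).

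KO without GH stood at 446 ± 66.2 and WT at 319 ± 55.1 (SD, n = 3 each), a log2 change of 0.46 ± 0.13 that did not pass (limma adjusted p = 0.136). KO with GH at 562 ± 13.6 and WT with GH at 529 ± 37.1 overlapped, with a change of 0.09 ± 0.13. WT was also the group with the least slow fibre RNA. Among the WT arrays, WT 1 had the most Myog (363) but the least Myh7 (124). WT 2 had Myog at 336 and Myh7 at 1133, and WT 3 had 257 and 192. Of the 7 slow fibre markers, 6 rose in KO relative to WT without GH, where 1.43% of all genes passed. With GH in WT 6 rose, where 19.1% of all genes passed. None passed for KO against WT with GH or for GH in KO, beside 4.53% and 24.4% of all genes. Whether the slow fibre content and Myog are linked was not tested.

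The Myog promoter is shown because E-boxes, the sequence that myogenic factors bind, can be marked in it. The window runs from 250 bases before to 50 bases after the start site, at chr1:134289754-134290053 on the plus strand (RefSeq, GRCm38.p6), with the 2 matches to CANNTG in capitals.
Myog: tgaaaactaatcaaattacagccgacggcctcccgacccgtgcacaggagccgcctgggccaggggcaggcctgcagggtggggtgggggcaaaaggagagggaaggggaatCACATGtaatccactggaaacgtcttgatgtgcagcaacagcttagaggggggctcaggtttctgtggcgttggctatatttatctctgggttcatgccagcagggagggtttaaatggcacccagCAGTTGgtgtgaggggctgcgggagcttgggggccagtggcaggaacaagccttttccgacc
Relative to the start site the matches begin at position -138 (CACATG) and at position -12 (CAGTTG). The E-box motif reads the same on both strands, and 72.3% of 32851 mouse promoter windows of this length hold at least 1 match. Of the 10 genes, 7 had such a window, 9 windows in all, and 3 of the 9 held a match. Myod1, Myf6 and Id1 had no window.

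Myf5 and Pax7, both expressed in satellite cells, were dim and did not pass in any comparison. Myf5, which neighbours Myf6 on mouse chromosome 10, had a signal of 58.3, 75.9 and 79.3 in KO with GH, 58.5, 94.5 and 67.3 in WT with GH, 52.2, 93.8 and 80.1 in KO, and 55.8, 67.3 and 50.8 in WT. The groups overlapped in all 4 pairs, and the fitted changes ran from -0.05 to 0.26 with SEs of 0.25.

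Pax7 had 2 probe sets. The brighter one gave 76.6, 124 and 106 in KO with GH, 32.2, 96.9 and 47.1 in WT with GH, 126, 114 and 150.4 in KO, and 91.3, 93.9 and 79.9 in WT. The KO arrays all lay above the WT arrays without GH, and the arrays with GH overlapped between genotypes. The change was 0.66 ± 0.27 for KO against WT with GH (limma adjusted p = 0.219) and 0.45 ± 0.27 without GH (limma adjusted p = 0.585). The dimmer probe set gave 0.53 ± 0.28 and 0.33 ± 0.28 for these comparisons. The 2 probe sets differed in sign for GH, at -0.30 and 0.58 in KO and at -0.51 and 0.38 in WT, and none of these changes passed.

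The MEF2 genes are carried by several probe sets each, and these did not all move together. Mef2d, a partner of the myogenic factors, rose by 0.24 ± 0.08 with GH in WT by its brightest probe set, 1434487_at (limma adjusted p = 0.0452). That probe set gave 4193, 4007 and 4183 in KO with GH, 3860.3, 3879 and 4045 in WT with GH, 3832, 4105 and 4305 in KO, and 3648, 3015 and 3315 in WT. The WT arrays without GH were below all others, and the 3 other groups overlapped. Over all probe sets tested singly the adjusted p was 0.0504. The call held under 12 of 25 alternatives, in 1 of them as a fall, and was lost without any 1 of the KO or WT arrays with GH. For KO against WT this probe set changed by 0.07 ± 0.08 with GH (limma adjusted p = 0.732) and by 0.30 ± 0.08 without (limma adjusted p = 0.0902). The second of these passed with array weights, without WT 1 and without both WT 1 and KO 3 (limma adjusted p = 0.0322, 0.0180 and 0.0330). In these 3 settings Myf6 did not pass for KO against WT without GH. For Mef2d the change with GH in KO was 0.02 ± 0.08.

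The other Mef2d probe sets fell with GH. Probe set 1437300_at gave 1452, 1235 and 1244 in KO with GH, 1498, 1501 and 1255 in WT with GH, 2194, 2214 and 1822 in KO, and 1770.5, 2054 and 2172 in WT. It fell by 0.65 ± 0.11 in KO (limma adjusted p = 0.000806) and by 0.49 ± 0.11 in WT (limma adjusted p = 0.00755). Probe set 1421388_at averaged 689 ± 41.0 in KO with GH, 607 ± 69.0 in WT with GH, 1041 ± 66.7 in KO and 911 ± 37.1 in WT (SD, n = 3 each), and it fell by 0.58 ± 0.10 in KO and by 0.57 ± 0.10 in WT (limma adjusted p = 0.00106 and 0.00149). For both, every array with GH lay below every array without GH of the same genotype. The direction of the Mef2d change with GH therefore depends on the probe set, and the mean of all 3 gave -0.40 in KO and -0.27 in WT (limma adjusted p = 0.000791 and 0.0115).

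Mef2c, the MEF2 gene linked to fibre type and sarcomere genes, did not pass by its brightest probe set in any comparison. With GH that probe set changed by -0.23 ± 0.09 in KO (limma adjusted p = 0.0744) and by -0.14 ± 0.09 in WT (limma adjusted p = 0.297). These changes passed under 5 of 25 alternatives in KO and 1 of 25 in WT. That probe set averaged 12470 ± 214 in KO with GH, 13449 ± 1050 in WT with GH, 14609 ± 520 in KO and 14866 ± 1818 in WT (SD, n = 3 each). Among its 5 probe sets, 1421028_a_at rose with GH in WT, with 8514, 8184 and 8518 in WT with GH, against 6568, 4750 and 4426 in WT (0.70 ± 0.14, limma adjusted p = 0.00278). In KO the same probe set gave 8472, 8296 and 8484 with GH, against 5714, 5838 and 7977 without (0.39 ± 0.14, limma adjusted p = 0.0546). Over the 5 probe sets the change with GH ran from -0.23 to 0.39 in KO and from -0.22 to 0.70 in WT.

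Mef2a, a broadly expressed MEF2 gene, had 6 probe sets, with 1 called in 1 comparison. Its brightest averaged 3613 ± 403 in KO with GH, 4361 ± 534 in WT with GH, 4210.3 ± 181 in KO and 4578 ± 487 in WT (SD, n = 3 each), and all 4 pairs of groups overlapped. For KO against WT, the brightest probe set of Mef2a changed by -0.27 with GH and -0.12 without, and that of Mef2c by -0.11 and -0.02. None of these passed, nor did the interactions of Mef2a, Mef2c, Mef2d and Myog, at -0.15, -0.09, -0.22 and -0.37. Probe set 1452347_at fell by 0.24 ± 0.08 with GH in WT (limma adjusted p = 0.0450), to 3143 ± 77.2 in WT with GH, against 3737 ± 364 in WT. In these single probe set tests 23.7% of all 22839 probe sets passed for GH in KO and 18.5% for GH in WT. Of the 14 MEF2 probe sets, 2 passed in KO and 4 in WT.

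**Figure D2:**
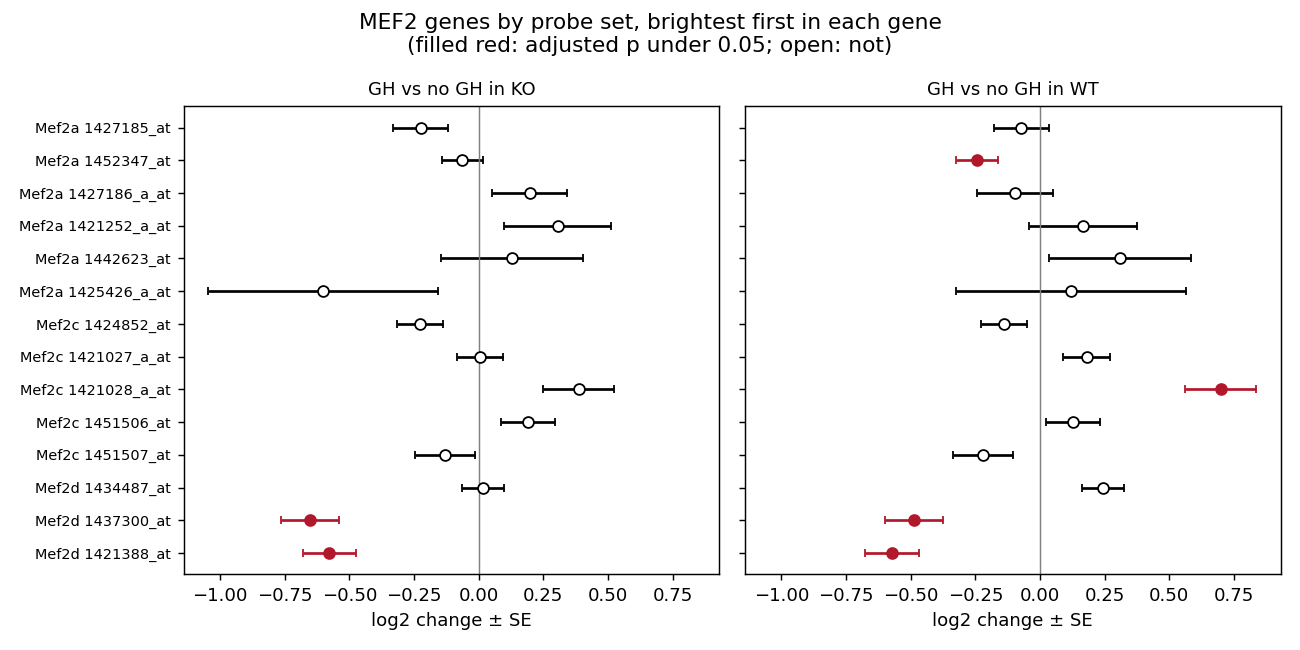
Log2 change with GH of the 14 MEF2 probe sets (x axis, log2 units, bars are ± 1 SE from limma) in KO on the left and in WT on the right, brightest first within each gene, with filled red points past an adjusted p of 0.05. Mef2d 1437300_at and 1421388_at lie left of 0 in both panels, whereas Mef2d 1434487_at does not.

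The first of the 3 Mef2c promoter windows is printed because it held the palindrome TTCNNNGAA, the core that STAT5 dimers prefer. It was the only one to do so among the 9 windows, which cover 7 of the 10 genes. Myod1, Myf6 and Id1 had no window and were not searched. It lies at chr13:83503784-83504083 on the plus strand (RefSeq, GRCm38.p6), and the capitals mark that match and 2 matches to CANNTG.
Mef2c: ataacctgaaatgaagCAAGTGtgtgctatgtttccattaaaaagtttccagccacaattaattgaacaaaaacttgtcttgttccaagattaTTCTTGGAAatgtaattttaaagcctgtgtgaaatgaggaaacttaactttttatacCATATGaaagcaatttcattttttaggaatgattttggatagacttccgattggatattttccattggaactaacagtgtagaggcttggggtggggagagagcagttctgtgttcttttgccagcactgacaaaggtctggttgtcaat
Relative to the start site the palindrome TTCTTGGAA begins at position -157, and CAAGTG and CATATG begin at positions -234 and -100. TTCNNNGAA reads the same on both strands and occurs in 8.30% of the 32851 windows. A loose MEF2-type pattern, which is its own reverse complement, was found in 3.69% of all windows and in those of Mef2a and Myf5. It fixes only the outer bases and allows any base at its centre. The Mef2a match has only A at the centre, whereas the Myf5 match also has G there. Other forms of a MEF2 site were not searched for, so a window without a match, such as that of Myog, may still hold one. A match is only a run of letters and says nothing of binding in these muscles.

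Id1 and Id3, which block E protein partners of the myogenic factors and respond to BMP signals, fell with GH in both genotypes. Id1 was 1096, 997 and 954 in KO with GH, 917, 891 and 930 in WT with GH, 1640.5, 1747 and 2425 in KO, and 1539, 1512 and 1669 in WT. Every array with GH lay below every array without GH. With GH it reached 52.4% of the untreated mean in KO (log2 change -0.90 ± 0.12, limma adjusted p = 0.000102) and 58.0% in WT (-0.77 ± 0.12, limma adjusted p = 0.000494).

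Id3 gave 900.3, 836 and 853 in KO with GH, 724, 677 and 657 in WT with GH, 1408, 1262 and 1524 in KO, and 936, 1102 and 1246 in WT. It too was lower on each array with GH than on any without. It fell by 0.68 ± 0.11 with GH in KO (limma adjusted p = 0.000414) and by 0.65 ± 0.11 in WT (limma adjusted p = 0.000772). Both genes kept these calls under all 25 alternatives in each genotype.

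The means of Id3 were 863 ± 33.4 in KO with GH, 686 ± 34.2 in WT with GH, 1398 ± 131 in KO and 1095 ± 155 in WT (SD, n = 3 each), and no 2 groups overlapped. Its KO against WT changes were nevertheless not called, at 0.32 ± 0.11 with GH (limma adjusted p = 0.121) and 0.35 ± 0.11 without (limma adjusted p = 0.160). The change with GH passed under 3 of 26 alternatives. These were array weights, only the compared groups, and without WT 1 and KO 3 (limma adjusted p = 0.0121, 0.0213 and 0.0291). For Id1 the KO against WT changes were 0.15 ± 0.12 with GH and 0.28 ± 0.12 without, with adjusted p of 0.607 and 0.384. The interactions of Id1 and Id3 were -0.13 ± 0.17 and -0.03 ± 0.15 and did not pass.

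Both genes are also expressed by endothelial and stromal cells, and some markers of such cells moved with GH, in both directions. Endothelial markers summed to 8202 to 8712 in KO with GH, 8050.4 to 8904 in WT with GH, 8404 to 9120.3 in KO and 8078 to 9357 in WT. The marker counts here stand beside 24.4% of all genes passing for GH in KO and 19.1% in WT. Of 9 endothelial markers, 1 rose and 3 fell with GH in KO, and 2 rose and 3 fell in WT. The median change of the 9 was 0.004 in KO and -0.055 in WT. Kdr, a VEGF receptor, fell by 0.91 in KO and 1.51 in WT. Macrophage markers summed to 6712 to 7035 in KO with GH, 6793 to 7106 in WT with GH, 8504 to 12019 in KO and 8866 to 15091 in WT, and of 6 markers 5 fell and 1 rose with GH in KO and 3 fell and 1 rose in WT. Fibroblast markers summed to 56935 to 58023 in KO with GH, 55705 to 66480.4 in WT with GH, 69226 to 75040.2 in KO and 70565 to 76799 in WT, and 3 of 6 fell with GH in each genotype. Of 4 adipocyte markers, 2 fell with GH in each genotype. Smooth muscle markers were mixed, with 3 of 5 higher and 1 lower in KO and 1 higher and 1 lower in WT, and 2 of 3 Schwann cell markers rose with GH in KO and 1 in WT. Of 3 neutrophil markers, 1 rose with GH in each genotype. The part of these cells in the Id1 and Id3 values was not tested.

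The Id3 promoter is shown as that of a gene that fell in both genotypes, at chr4:136143572-136143871 on the plus strand (RefSeq, GRCm38.p6), without capitals since none of the 3 motifs matched in it.
Id3: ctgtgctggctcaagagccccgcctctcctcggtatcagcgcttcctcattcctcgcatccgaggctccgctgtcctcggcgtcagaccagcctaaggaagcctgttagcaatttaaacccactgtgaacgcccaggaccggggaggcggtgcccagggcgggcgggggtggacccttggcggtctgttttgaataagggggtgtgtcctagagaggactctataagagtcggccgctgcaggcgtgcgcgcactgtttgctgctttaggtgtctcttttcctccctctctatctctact
The absence of a match holds for these letters in this window only.

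**Figure D3:**
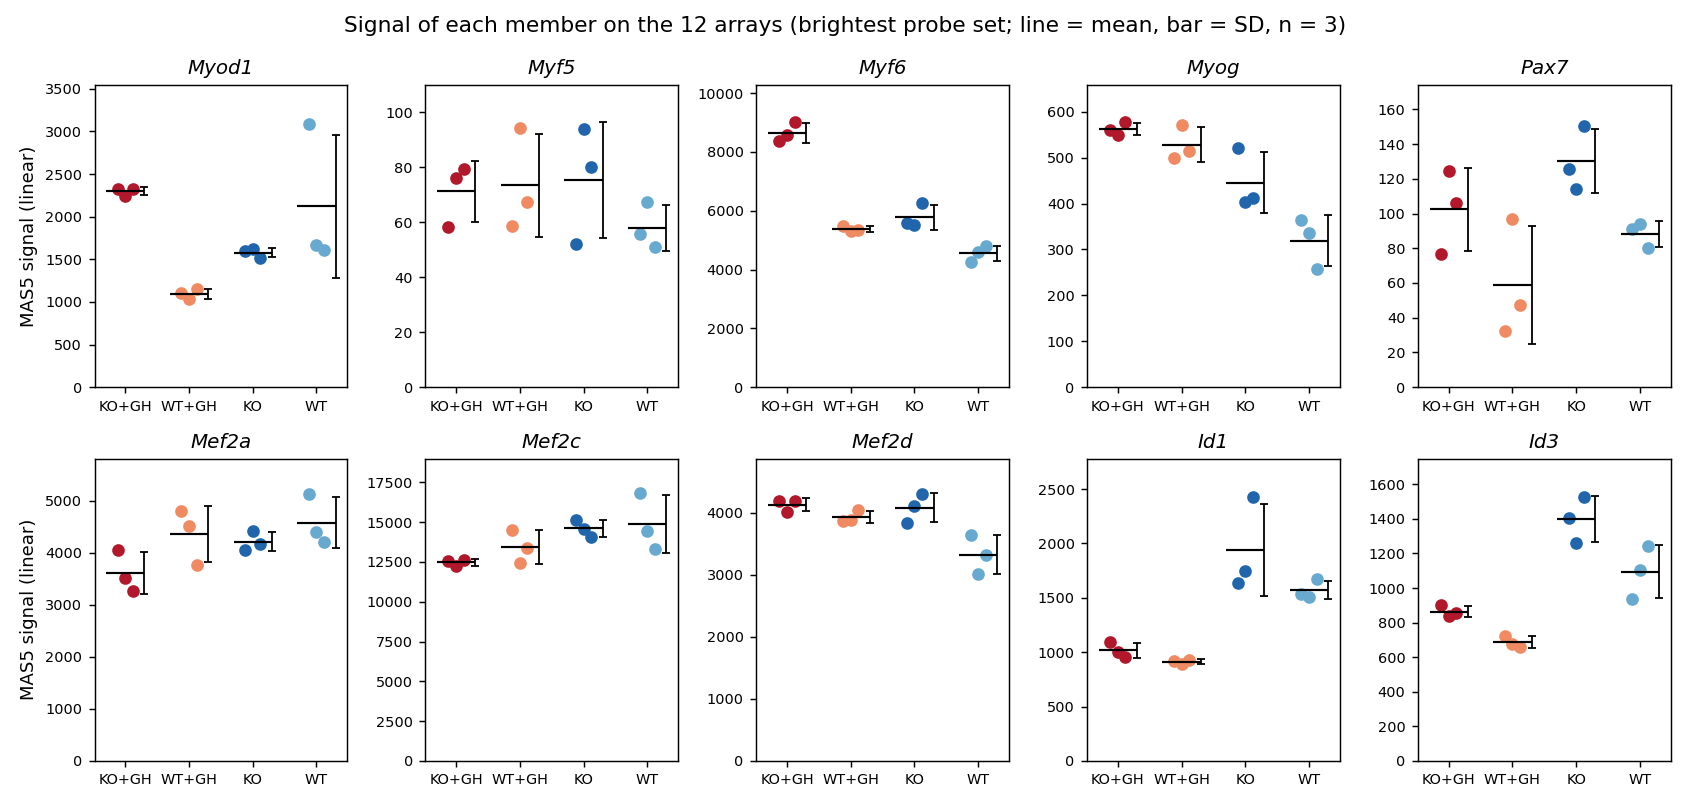
MAS5 signal (y axis, linear scale from 0) of the brightest probe set of each of the 10 genes on the 12 arrays, in the order KO with GH, WT with GH, KO and WT, where points are arrays, lines are group means and bars are SDs (n = 3). Myf6 separates all 4 pairs of groups compared, the Id1 and Id3 points with GH lie below those without, and 1 WT array of Myod1 stands at 3089.

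Across the 12 arrays Id1 and Id3 varied together, with a Pearson r of 0.94 between their log2 values. Myog and Mef2d had an r of 0.70, and Myf6 and Mef2a had an r of -0.78. These arrays share the 4 groups and the 2 GH conditions, so the values are descriptions. Among all 12653 genes, the patterns most like that of Myod1 were those of Pgm2l1 (r = 0.93), Zbtb14 (r = 0.92) and Yap1 (r = 0.91). For Myf6 they were Adamts1 (r = 0.97), Gm13889 (r = 0.96) and Junb (r = 0.96), and for Myog Atp2a3 (r = 0.93), Gstm2 (r = 0.93) and Myom3 (r = 0.91). Those nearest to Mef2d were Tomm40l, Spag5 and Bcas1 (r = 0.90, 0.90 and 0.88). Id1 was most like Mcrip1, Unc119 and Apbb2 (r = 0.98, 0.98 and 0.97) and Id3 most like Cbr1, Psmb6 and Eola1 (r = 0.98, 0.98 and 0.97).

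Partners and repressors of the myogenic factors were set beside all genes, of which 24.4% passed for GH in KO (15.4% lower) and 19.1% in WT (11.8% lower). Of 17 E proteins, HLH and related repressors tested, 6 fell and none rose with GH in KO, and 3 fell and 1 rose in WT, with medians of -0.12 and -0.15 against -0.06 over all genes in each genotype. Tcf3, which encodes the E proteins E12 and E47, averaged 413 ± 53.2 in KO with GH, 438 ± 94.3 in WT with GH, 651 ± 84.0 in KO and 666 ± 50.3 in WT (SD, n = 3 each), and it fell by 0.63 ± 0.15 with GH in KO and by 0.60 ± 0.15 in WT (limma adjusted p = 0.00804 and 0.0133). The repressor Bhlhe41 fell by 0.62 in KO and 0.61 in WT, Hes6 fell by 0.55 in KO and 0.56 in WT, and Snai2 fell by 0.91 in KO. With the probe sets of a gene averaged, Bhlhe41 had a change of -0.19 in KO (limma adjusted p = 0.232). Snai2, a dim gene read by a probe set ending in _x_at, had a change of -0.08 without such probe sets (limma adjusted p = 0.898).

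Between genotypes 4.53% of all genes passed with GH and 1.43% without. Of the 17, only Hes1, a Notch target that represses myogenic genes, was called there. It averaged 534 ± 23.3 in KO with GH and 905 ± 67.4 in WT with GH, and 763 ± 71.5 in KO and 669.5 ± 137 in WT (SD, n = 3 each). It was lower in KO with GH than in WT with GH by a log2 change of -0.73 ± 0.13 (limma adjusted p = 0.00289), and by -0.48 with the actin ratio as a covariate (limma adjusted p = 0.348). With GH it fell by 0.49 in KO and rose by 0.44 in WT, and the interaction was -0.93 ± 0.18 (limma adjusted p = 0.0221). Myod1 had the opposite signs in these comparisons, and a link between them was not tested. Without GH, no gene of the list passed between KO and WT, and the smallest p belonged to Snai2, at 0.78 ± 0.26 (limma adjusted p = 0.195).

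Of 24 other satellite cell genes tested, 2 rose in KO with GH relative to WT with GH and none fell, and none passed without GH. Over all genes 4.53% passed with GH and 1.43% without. Met, the receptor of hepatocyte growth factor, was 727 ± 46.1 in KO with GH, 421 ± 34.8 in WT with GH, 509 ± 28.7 in KO and 503 ± 33.0 in WT (SD, n = 3 each). It rose by 0.75 ± 0.10 in KO relative to WT with GH (limma adjusted p = 0.000370), and its interaction was 0.74 ± 0.15 (limma adjusted p = 0.0242). With the actin ratio as a covariate the first of these changes was 0.68 (limma adjusted p = 0.0677). Notch3, a Notch receptor of satellite and mural cells, rose by 0.42 ± 0.09 (limma adjusted p = 0.0178), a call kept under 20 of 26 alternatives. Without GH, Six4 and Itga7 had changes of 0.36 and 0.22 with adjusted p of 0.210 and 0.355.

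With GH, 4 of the 24 rose and 3 fell in KO, where 24.4% of all genes passed, and 2 rose and 1 fell in WT, where 19.1% passed. The chemokine receptor Cxcr4 fell by 1.06 ± 0.23 in KO and it fell by 1.68 ± 0.23 in WT (limma adjusted p = 0.00328 and 0.000142). Fgfr1, an FGF receptor, rose by 0.57 and 0.40 in KO and WT by its brightest probe set, but its change was -0.22 and -0.32 when probe sets ending in _x_at or _s_at were left out. The cell surface proteoglycan Sdc4 rose by 2.54 ± 0.53 in KO and 2.08 ± 0.53 in WT. Markers of quiescence and of activation are mixed in this list. Its summed signal was 22798 to 23183 in KO with GH, 21349.7 to 21978 in WT with GH, 19729.98 to 20711 in KO and 19095 to 21229 in WT. Sdc4 is part of this sum, with means of 3709 in KO with GH, 3467 in WT with GH, 724 in KO and 918 in WT. The rise of this gene is about as large as the difference in the sum or larger. The sum therefore does not show a rise of the whole list with GH.

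Among 26 cofactors and regulators of MEF2, Mrtfa alone rose in KO relative to WT without GH. With GH, 2 rose and 1 fell in KO relative to WT. The shares of all genes passing were 1.43% without GH and 4.53% with GH. Mrtfa, a coactivator of serum response factor, was 732 ± 29.8 in KO with GH, 800.4 ± 72.9 in WT with GH, 1472 ± 132 in KO and 1049 ± 114 in WT (SD, n = 3 each). The KO rise without GH was 0.48 ± 0.10 (limma adjusted p = 0.0310), a call kept under 14 of 26 alternatives. With GH, Vgll2, a cofactor of TEAD proteins, rose by 0.44 ± 0.09, the kinase gene Camk2b rose by 0.47 ± 0.12, and Ppargc1a, the coactivator of oxidative fibre genes, fell by 0.88 ± 0.18 in KO relative to WT (limma adjusted p = 0.00888, 0.0276 and 0.00971). These calls were kept under 23, 18 and 25 of 26 alternatives.

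With GH, 5 of the 26 rose and 3 fell in KO, where 24.4% of all genes passed. In WT 1 rose and 3 fell, where 19.1% of all genes passed. Hdac9, a class IIa deacetylase that represses MEF2, fell by 1.63 ± 0.26 in KO and by 1.25 ± 0.26 in WT (limma adjusted p = 0.000373 and 0.00343). Rcan1, an inhibitor and target of calcineurin, rose by 0.99 ± 0.12 and 0.66 ± 0.12 (limma adjusted p = 3.83e-05 and 0.00154). Mrtfa fell by 0.98 and 0.38, Camk2d rose by 0.71 in KO, and Vgll3 fell by 0.94 in WT. For the interaction none of the 26 passed, and Mrtfa and Camk2d had values of -0.60 and 0.58 with adjusted p of 0.0814 and 0.215.

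Of 19 genes that respond to myogenic factors or denervation, Gadd45a and Igf2 rose in KO relative to WT with GH, and Igf2 rose without GH. In these comparisons 4.53% of all genes passed with GH and 1.43% without. Gadd45a, a growth arrest gene induced in denervated muscle, was 3593 ± 305 in KO with GH, 1636 ± 166 in WT with GH, 602 ± 202 in KO and 589.6 ± 38.8 in WT (SD, n = 3 each). The KO rise with GH was 1.12 ± 0.16 (limma adjusted p = 0.000549), and the interaction was 1.14 ± 0.23 (limma adjusted p = 0.0255). The growth factor gene Igf2 rose by 0.49 ± 0.12 with GH and by 0.54 ± 0.12 without (limma adjusted p = 0.0238 and 0.0294), calls kept under 18 and 14 of 26 alternatives.

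With GH, 5 of the 19 rose and 3 fell in KO, where 24.4% of all genes passed. In WT 3 rose and none fell, where 19.1% of all genes passed. The medians were 0.22 in KO and 0.18 in WT, against -0.06 over all genes in each. Gadd45a rose by 2.57 ± 0.16 in KO and 1.43 ± 0.16 in WT, the cell cycle inhibitor Cdkn1a by 1.999 ± 0.20 and 1.40 ± 0.20, and Musk, the receptor kinase of the neuromuscular junction, by 1.17 ± 0.16 and 0.80 ± 0.16 (highest limma adjusted p = 0.00266). Muscle creatine kinase Ckm fell by 0.63 ± 0.14 in KO. Of the 7 muscle fibre markers 5, Ckm among them, fell with GH in KO, and the summed signal of the 7 was 268702 to 282857 in KO with GH, against 333290.4 to 422568 in KO.

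The BMP pathway lies upstream of Id1 and Id3. Of 23 of its genes tested, 5 rose and 3 fell with GH in KO, beside 24.4% of all genes passing, and 6 rose and 2 fell in WT, beside 19.1%, with medians of 0.05 and 0.08. The ligand Bmp6 rose by 1.48 ± 0.11 in KO and 1.23 ± 0.11 in WT (limma adjusted p = 2.62e-07 and 3.30e-06), and the ligand Bmp4 rose by 1.03 ± 0.16 and 0.83 ± 0.16 (limma adjusted p = 0.000336 and 0.00223). Smad1, the transducer of BMP receptors, was 1667 ± 40.8 in KO with GH, 1116 ± 51.8 in WT with GH, 647 ± 48.03 in KO and 739 ± 51.9 in WT (SD, n = 3 each), and rose by 1.33 ± 0.09 in KO and 0.58 ± 0.09 in WT. Smad6, an inhibitory SMAD and a BMP target, fell by 0.85 ± 0.17 in KO, whereas Atoh8, an HLH gene that responds to BMP, rose by 1.53 ± 0.33 in WT.

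Between genotypes, 3 of the 23 rose in KO with GH and none passed without GH, beside 4.53% and 1.43% of all genes. The BMP antagonist Nog was 736.5 ± 33.8 in KO with GH, 295 ± 19.4 in WT with GH, 455 ± 103 in KO and 294 ± 28.4 in WT (SD, n = 3 each), and rose by 1.25 ± 0.14 with GH (limma adjusted p = 6.32e-05). Smad1 and the inhibitory Smad7 rose by 0.57 ± 0.09 and 0.68 ± 0.16 (limma adjusted p = 0.00104 and 0.0250), and these calls were kept under 26 and 20 of 26 alternatives. Without GH the changes of Nog and Atoh8 were 0.57 and 1.10, with adjusted p of 0.0682 and 0.137. The interaction passed for Smad1, at 0.76 ± 0.13, and for the activin antagonist Fst, at -1.06 ± 0.24 (limma adjusted p = 0.00629 and 0.0464). That of Fst was called under 9 of 24 alternatives and that of Smad1 under all 24.

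**Figure D4:**
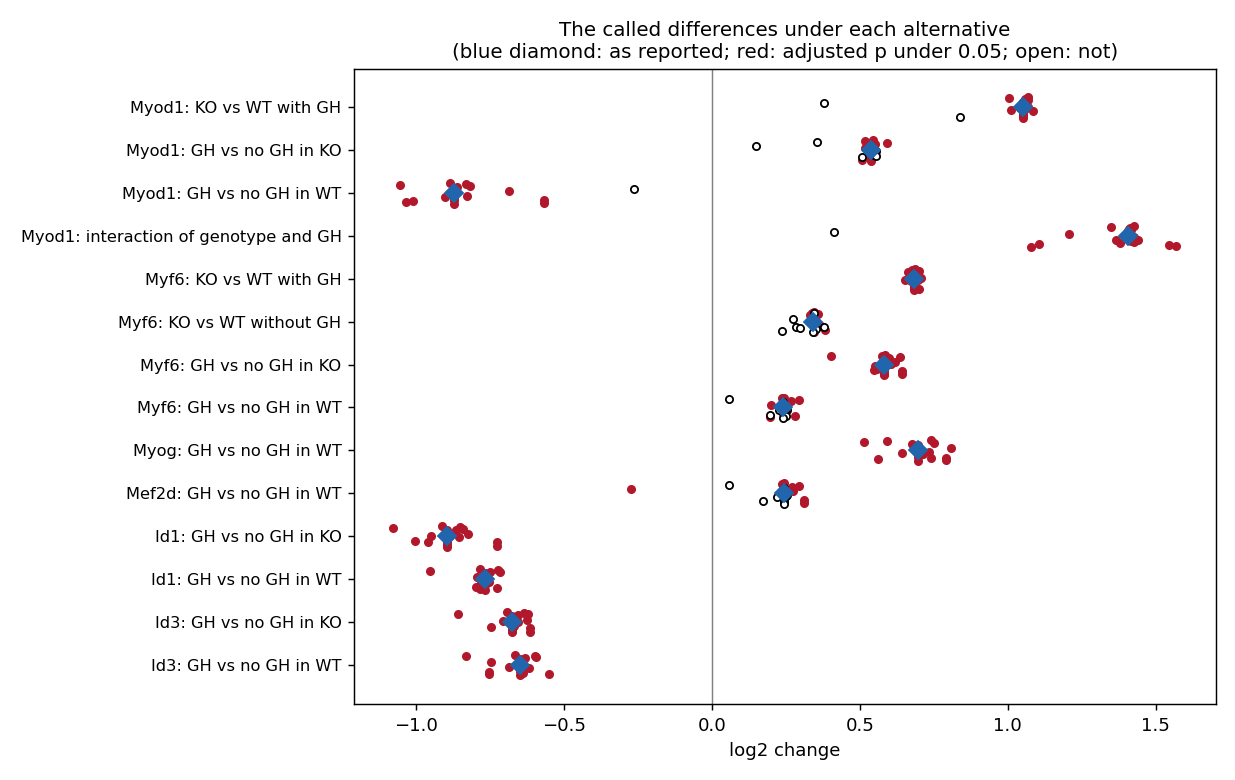
Log2 change (x axis) of each called difference among the 10 genes as reported (blue diamond) and under each alternative processing or left-out array (circles, filled red past an adjusted p of 0.05, open otherwise). The Id1, Id3 and Myog points and those of Myf6 for KO against WT with GH are all filled, while Mef2d has a filled point left of 0 at -0.27 for the mean of its probe sets.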

How the data were processed

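The 12 muscle RNA samples were each hybridised to a separate array. The deposited values are MAS5 signals (linear intensity) of 45101 probe sets, with MAS5 named per the submitters' processing notes and its version and settings not given in the sources used here. The mean signal after trimming 2% at either end was 500 on each array, so the authors' intensity values carry a common scaling. No detection calls were used. Samples were grouped by the labels' source names. Titles give every animal its own number, so nothing pairs the groups, and p-values measure the spread between arrays taken as separate animals.

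Values were taken as log2(signal + 25), the deposited intensity plus a pseudocount, so a log2 change understates that of dim genes. Genes were named from the platform annotation, with control probe sets (64) and probe sets with several symbols (932) or none (9160) left out. The brightest probe set stands for a gene, and 12653 genes with a mean log2 value over 6.253, the 40th percentile over probe sets, were kept. A second fit took all 22839 probe sets above the same level. Tests used R 4.3.3, statmod 1.5.0 and limma 3.58.1: 1 mean for each of 4 groups over 12 arrays, 8 residual degrees of freedom, eBayes with trend and robust, 2-sided p adjusted by Benjamini-Hochberg over all genes of the fit, with a threshold of 0.05. "Rose" and "fell" are used for changes past it. The method was tested on simulated data. The number of arrays limits the precision.

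All 10 genes are described. From each pathway list the text names, in each comparison, at most 4 genes past the threshold, taken by smallest p, or at most 2 where there were none, and gives values of all groups for a few of them. Stat5a, Stat5b and the 3 genes most like each called one are named too, and Kdr and Myh7 as markers. The values of Hes6 and Sdc4 in KO fall outside this rule and were chosen after they were seen. The genes, the lists and the tests were chosen with earlier results of these data known. Some genes of the lists were not analysed here. Promoter windows and their motifs come from RefSeq (GRCm38.p6). The alternatives were other pseudocounts, scalings, filters, probe set rules, array weights, eBayes settings, covariates and sample sets. Centring on the median of the genes kept was added after seeing the data.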

Additional observations from a re-analysis of the deposited data

Results flagged for a closer look

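The GH effect in KO minus that in WT passed limma's threshold for 6 of the genes named, and each was singled out because this difference between genotypes was itself tested, as an interaction. For Myod1 the difference was 1.41 on the log2 scale, called under 22 of 24 alternatives. It was not called with the mean of its probe sets (0.41) or with eBayes run without trend and robust (limma adjusted p = 0.0565). For the BMP transducer Smad1 it was 0.76, called under all 24, and for the receptor Met it was 0.74, called under 18 of 24. For Gadd45a it was 1.14, called under 15 of 24, and for the repressor Hes1 it was -0.93, called under 17 of 24. For Fst it was -1.06, called under 9 of 24. All 6 kept their sign under every alternative that was run. The actin 3 prime over 5 prime ratio was higher and that of Gapdh lower in KO with GH than in WT with GH, both without overlap, and their part in these differences was not tested.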

How the results depend on the processing

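No paired analysis was possible because the animal numbers in the titles are not shared between groups. Over the 50 results of the 10 genes (10 genes in 5 comparisons), 1250 alternative values were computed. Of these, 1144 kept direction and side of the threshold, 31 differed in sign with no call either way, 53 lost a call, 20 gained one and 2 reversed. The reversals were Mef2d with GH, at -0.40 in KO and -0.27 in WT when its probe sets were averaged. Among other named genes, leaving out probe sets ending in _x_at or _s_at reversed Fgfr1 with GH (-0.22 in KO, -0.32 in WT) and Notch3 with GH in KO (-0.15). The cause was not tested.

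Scaling mattered most for GH. Centring each array on the median of all probe sets moved the median change of all genes to -0.25 for GH in KO and -0.24 for GH in WT, and gave 4851 genes past the threshold in KO (650 higher, 4201 lower, against 1135 and 1954 as reported) and 4440 in WT (496 higher, 3944 lower, against 933 and 1490). Centring on the genes kept gave 1357 higher and 1369 lower in KO, and 1114 and 1097 in WT. Under the first centring Myf6 and Mef2d changed by 0.06 each with GH in WT, and none (0) of the 10 genes passed for KO against WT without GH.

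For KO against WT with GH, 573 genes and 2 of the 10 passed as reported. There were 1363 genes with array weights, 1030 without WT 1 and KO 3, 1304 with only the compared groups, and 144 with the actin ratio as a covariate. Of the 10 genes, 1 passed with that covariate and 1 when probe sets were averaged, and 3 passed in the other 3 of these settings. Among other genes named for this comparison, Hes1, Met, Notch3, Vgll2, Camk2b, Igf2, Smad7 and Stat5a lost their call with the actin covariate. Gadd45a, Nog, Smad1, Ppargc1a and Stat5b kept theirs. For KO against WT without GH, 181 genes and 1 of the 10 passed. There were 272 genes with array weights, 277 without WT 1 and KO 3, 112 with eBayes without trend and robust, and 39 with only the compared groups. The last 2 left 0 of the 10. For the interaction, 120 genes and 1 of the 10 passed, against 217 and 2 with array weights, 211 and 2 without WT 1 and KO 3, 78 and 0 with eBayes without trend and robust, and 0 of the 10 when probe sets were averaged.

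Leaving out 1 array at a time gave 353 to 777 genes and 2 of the 10 for KO against WT with GH, 121 to 252 genes and 0 to 1 without GH, 2074 to 3644 genes and 3 to 5 for GH in KO, 1632 to 2707 genes and 4 to 6 for GH in WT, and 76 to 146 genes and 1 for the interaction. The count for KO against WT with GH was 367, 360 and 353 without KO with GH 1, 2 and 3, and that for the interaction was 76 and 79 without KO with GH 1 and 2. KO against WT without GH had 0 of the 10 without any 1 KO array with GH, WT with GH 2 or 3, KO 2 or 3, or WT 2. With 3 arrays a group and no detection calls, dim genes such as Myf5 and Pax7 have SEs of about 0.25 and 0.27. Changes of that size were not detectable, and larger ones could also be missed. The Pax7 change of 0.66 for KO against WT with GH did not pass (limma adjusted p = 0.219).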
